A study of Homo sapiens with 17 samples.

Results

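The genes described here make cholesterol and fatty acids, or control that synthesis: 31 genes of the 26736 with at least 1 estimated read. They come from a list drawn up by function, with earlier results of these data known, and fall into 18 sterol enzymes, 5 regulators and 8 fatty acid genes. The libraries came from K562, an established human chronic myeloid leukaemia line with erythroid features. All 17 libraries share the same handling: cells were electroporated with plasmids for CRISPR activation, then given an antisense oligonucleotide (ASO), and were harvested on day 6. Total RNA was read as 3′ tags, so each read marks the end of a polyadenylated transcript. The labels name neither the ASO nor the guides, and do not say that libraries came from separate cultures.

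The plasmid label sets the groups. In 4 libraries a number stands before the gene (20-ARSF, 21-CTPS2, 22-LAPTM4B and 23-GOLGA8N, called prefixed). In 13 it does not (ADORA2A, COL6A6, E7, TRPC5OS, TTR, UBE2V1, libraries 1 and 2 each of GOLGA8N and LAPTM4B, and Neg, RFP and GFP, called unprefixed). What the prefix, E7 or Neg stands for is not given, so a prefix may mark a plasmid, a guide, a day or a batch, and these cannot be told apart. In a second layout, the 3 libraries naming GOLGA8N (1, 2 and 23-) and the 3 naming LAPTM4B (1, 2 and 22-) form an arm each. They were set against a reference arm of Neg, RFP and GFP, labels without a human gene. In bulk RNA of this kind, fewer cells with a transcript and less of it per cell cannot be told apart.

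Cholesterol is built from acetyl-CoA through mevalonate, farnesyl diphosphate and squalene, and fatty acids are built from the same acetyl-CoA through malonyl-CoA. Both routes are under the sterol regulatory element-binding proteins, made from SREBF1 and SREBF2. SCAP, the sterol sensor, carries these precursors from the endoplasmic reticulum to the Golgi, where they are cut to release the active factor, and INSIG1 holds SCAP back when sterol is plentiful. SREBF2 acts mainly on sterol genes and SREBF1 mainly on fatty acid genes, and both work on promoters together with NF-Y, which binds the CCAAT box, and Sp1, which binds GC boxes.

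Promoter sequence is shown for members on which the results below turn, since these genes are described as responding together. The windows are the 250 bases before the RefSeq start in GRCh38.p14, 5′ to 3′ on the gene's strand. Capitals mark the CCAAT box (CCAAT, or ATTGG on the other strand), and in SREBF2 also the sterol regulatory element searched as TCACNCCAC.
MSMO1 (chr4:165327419-165327668, plus strand): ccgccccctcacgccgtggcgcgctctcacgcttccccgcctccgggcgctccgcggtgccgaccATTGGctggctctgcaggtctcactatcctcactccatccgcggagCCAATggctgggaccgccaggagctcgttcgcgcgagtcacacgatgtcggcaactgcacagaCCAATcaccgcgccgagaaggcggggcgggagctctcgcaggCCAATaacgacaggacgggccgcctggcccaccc
HMGCS1 (chr5:43313413-43313662, minus strand): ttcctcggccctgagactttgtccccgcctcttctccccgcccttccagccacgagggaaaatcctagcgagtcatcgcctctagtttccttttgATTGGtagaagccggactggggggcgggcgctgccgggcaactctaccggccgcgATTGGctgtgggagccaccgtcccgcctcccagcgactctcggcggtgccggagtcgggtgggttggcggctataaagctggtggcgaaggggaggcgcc
FDPS (chr1:155308616-155308865, plus strand): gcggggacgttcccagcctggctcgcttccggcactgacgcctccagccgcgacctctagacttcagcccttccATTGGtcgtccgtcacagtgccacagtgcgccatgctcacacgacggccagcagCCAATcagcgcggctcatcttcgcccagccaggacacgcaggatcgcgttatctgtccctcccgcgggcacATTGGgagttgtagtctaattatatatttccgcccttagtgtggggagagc
SCD (chr10:100346983-100347232, plus strand): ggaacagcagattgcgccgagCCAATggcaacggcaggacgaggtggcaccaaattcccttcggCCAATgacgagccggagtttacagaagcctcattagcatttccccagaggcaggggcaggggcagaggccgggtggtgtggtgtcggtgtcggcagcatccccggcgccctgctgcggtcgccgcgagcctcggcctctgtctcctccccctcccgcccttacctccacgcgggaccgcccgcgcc
SREBF2 (chr22:41832855-41833104, plus strand): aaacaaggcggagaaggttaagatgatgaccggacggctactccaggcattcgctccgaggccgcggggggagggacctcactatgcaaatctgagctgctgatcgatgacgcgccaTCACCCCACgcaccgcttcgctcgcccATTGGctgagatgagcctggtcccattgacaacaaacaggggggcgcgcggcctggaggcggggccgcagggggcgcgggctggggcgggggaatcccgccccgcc
FADS1 (chr11:61817004-61817253, minus strand): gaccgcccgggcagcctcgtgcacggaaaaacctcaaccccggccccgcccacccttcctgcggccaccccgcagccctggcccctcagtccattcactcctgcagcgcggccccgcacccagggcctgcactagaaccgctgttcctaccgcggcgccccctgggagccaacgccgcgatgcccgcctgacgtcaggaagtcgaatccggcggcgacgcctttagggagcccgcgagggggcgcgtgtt
MSMO1 held 4 CCAAT boxes, FDPS 3, HMGCS1 and SCD 2 each, SREBF2 1 and FADS1 0. A window was listed for 27 of the 31 members, and not for ACAT2, FDFT1, SQLE and FASN. The CCAAT box was in 17 of these 27 (63.0%), against 33.0% of 27305 windows, 1 for each gene listed, searched on both strands. A GC box, searched as GGGCGG on both strands, was in 25 of 27 members (92.6%) and in 42.3% of all windows. The E-box CACGTG, which contains none of the other motifs, was in 3 of 27 members and in 6.49% of all windows. The element TCACNCCAC was in SREBF2 alone among the members and in 0.875% of all windows. Such matches describe letters and do not show binding. All windows listed were counted, with no limit to protein-coding or expressed genes, while the members are protein-coding and were detected. The part of this in the shares was not tested. An element spelled otherwise, or lying outside the window, would be missed, so a window without a match does not show that the gene lacks one.

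Depth was lowest in GFP, at 569057 estimated reads. The other 16 libraries held 2252097 to 4236396, and the median of all 17 was 3222049. A floor of 3 reads is 5.45 CPM (reads scaled to a common total of reads in genes) in GFP and at most 1.38 CPM elsewhere, and covers counting error only. Without GFP, MSMO1 was still the 1 member called in the prefix comparison below, at log2 1.12 (46 of 12271 genes were called). Of the genes named by the prefixed libraries and the arms, LAPTM4B was at 189 ± 29.7 CPM (SD, n = 3) in the libraries naming it and 227 ± 43.3 CPM (SD, n = 14) in the others, and CTPS2 at 15.98 CPM in 21-CTPS2 and at most 18.3 CPM in the others. GOLGA8N had 0.692 estimated reads in the 3 libraries naming it and 1.32 in the 14 others, and ARSF had 0 reads. None of these values shows the named gene activated beyond the spread, so a name such as 23-GOLGA8N stands throughout for the library labelled so. The labels call the cells lymphoblasts, but CD3E, CD2, MS4A1, CD79B and CD8A had 0 reads in all 17 libraries, while all 12 erythroid markers were detected. The erythroid markers summed to 7056 to 10258 CPM in prefixed libraries and 6140 to 12034 CPM in unprefixed ones.

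All 31 members were detected. On the deposited TPM scale, which divides by transcript length although 3′ tags do not grow with it, the highest sterol enzymes were FDPS at 182 ± 41.5 TPM (SD, n = 17), MVD at 167 ± 46.4 TPM and FDFT1 at 52.6 ± 13.6 TPM. These make farnesyl diphosphate, isopentenyl diphosphate and squalene. Among regulators INSIG1 was highest at 20.5 ± 8.1 TPM, followed by SCAP at 14.02 ± 2.7 and SREBF2 at 7.39 ± 1.76. SCD, the desaturase that makes oleate, led the fatty acid genes at 28.3 ± 7.6 TPM, ahead of FADS1, a desaturase of polyunsaturated fatty acids, at 17.02 ± 5.69, and FASN, the fatty acid synthase, at 16.5 ± 2.98. The SDs of FADS1 and FASN overlap, so their order does not stand beyond the spread. Without division by length the order differs: on the CPM scale FASN averaged 415 ± 71.7 and FADS1 220.2 ± 75.1, and MVD, at 100.1 ± 28.8, lay below FDPS at 268 ± 68.6, FDFT1 at 237 ± 70.9, HMGCS1 at 236 ± 94.1 and ACAT2 at 233 ± 76.9 (SD, n = 17 each). The order of levels between genes thus depends on the scale. HSD17B7, a sterol reductase, was lowest at 0.586 TPM, with 83 reads in all, against 186 reads on its copy HSD17B7P2, between which the quantifier divides reads.

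**Figure D1:**
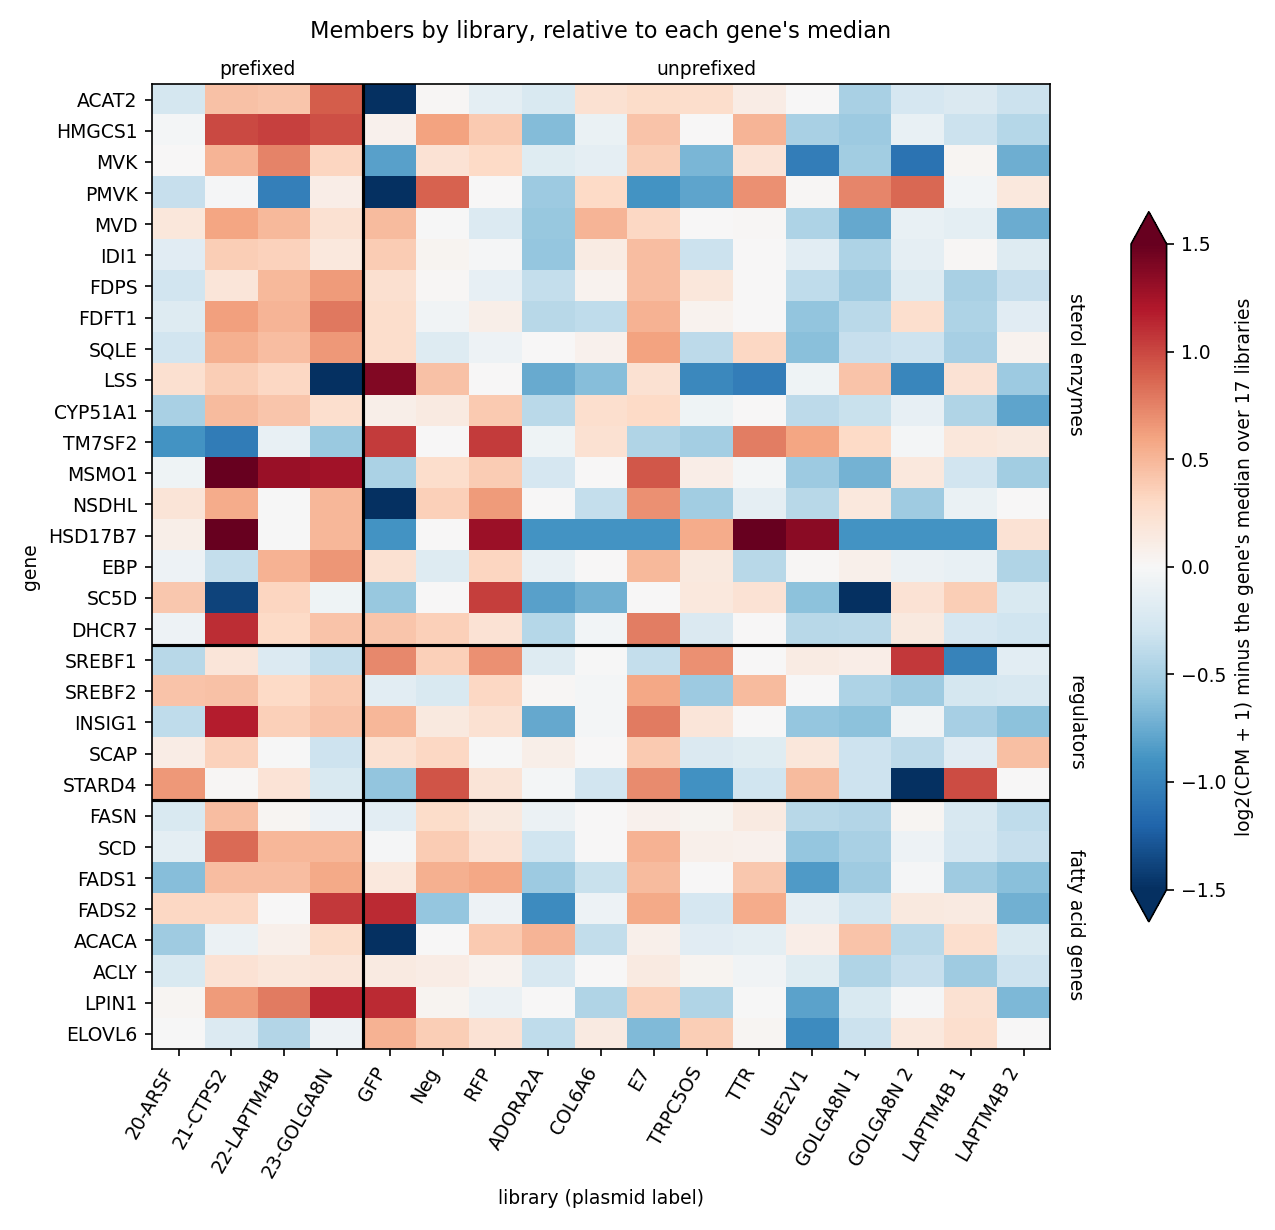
Heat map of all 31 members (rows, by branch) in 17 libraries (columns, prefixed left of unprefixed), coloured by log2(CPM + 1) minus the gene's own median over the 17 libraries, with colours ending at 1.5 in either direction. The columns 21-CTPS2, 22-LAPTM4B, 23-GOLGA8N and E7 are mostly red, while TM7SF2, PMVK and ELOVL6 do not follow that pattern.

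The 3 branches were summed in each library. The 18 sterol enzymes summed to 1479 CPM in 20-ARSF, 2436 in 21-CTPS2, 2415 in 22-LAPTM4B and 2604 in 23-GOLGA8N. Unprefixed libraries ran from 1253 CPM in GOLGA8N 1, through a median of 1664, to 2255 in E7. Thus 3 of the 4 prefixed libraries stood above all 13 unprefixed ones, while 20-ARSF ranked 12 of 17. The means were 2234 ± 510 CPM (SD, n = 4) in prefixed and 1602 ± 295 CPM (SD, n = 13) in unprefixed libraries, a log2 ratio of 0.48, and without 20-ARSF the prefixed mean was 2485 ± 104 CPM (SD, n = 3). No test is given for a sum. FDPS, FDFT1, HMGCS1 and ACAT2 made up 15.3%, 13.5%, 13.5% and 13.3% of the sterol sum, so these 4 genes carry most of it.

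Fatty acid genes summed to 1093 CPM in 20-ARSF, 1888 in 21-CTPS2, 1568 in 22-LAPTM4B and 1627 in 23-GOLGA8N. The unprefixed libraries had a lowest value of 897 CPM in UBE2V1, a median of 1248 and a highest of 1604 in Neg. The groups overlap: 22-LAPTM4B lay below both Neg and E7 (1591 CPM). The means were 1544 ± 331 CPM (SD, n = 4) in prefixed and 1248 ± 245 CPM (SD, n = 13) in unprefixed libraries. Regulators summed to 407 CPM in 20-ARSF, 647 in 21-CTPS2, 454 in 22-LAPTM4B and 440 in 23-GOLGA8N, against 303 to 586 CPM with a median of 389 in unprefixed libraries. Their means were 487 ± 108 CPM (SD, n = 4) in prefixed and 408 ± 76.1 CPM (SD, n = 13) in unprefixed libraries, and here 21-CTPS2 and E7 were the 2 highest of all 17.

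**Figure D2:**
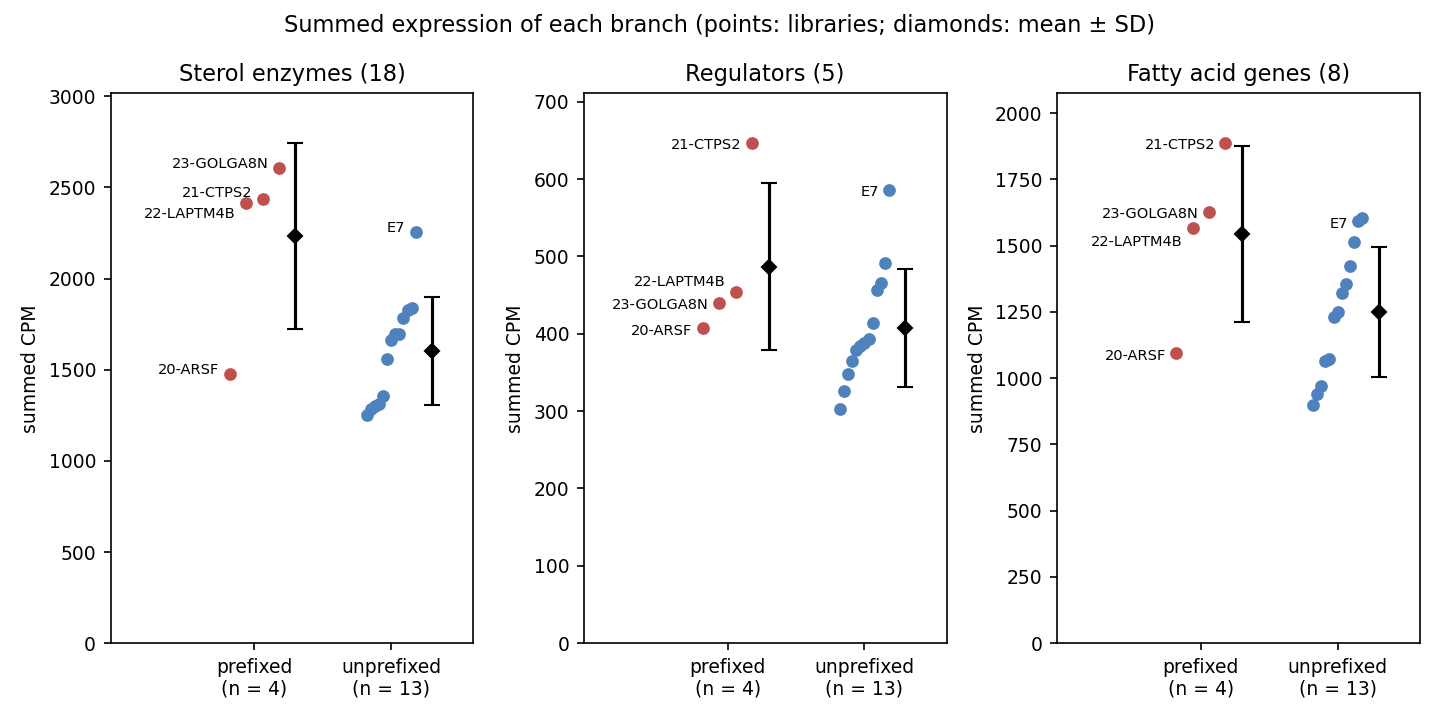
Summed CPM of the sterol enzymes, regulators and fatty acid genes in each library, prefixed left and unprefixed right, with the mean and SD as black diamonds and bars. In the sterol panel 21-CTPS2, 22-LAPTM4B and 23-GOLGA8N lie between 2415 and 2604 CPM, E7 at 2255 and 20-ARSF at 1479.

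The first comparison set the prefixed against the unprefixed libraries for each gene. MSMO1, the sterol C4 methyl oxidase that removes methyl groups on the way from lanosterol to cholesterol, rose in prefixed libraries, and it was the 1 member of 31 called by edgeR after Benjamini-Hochberg adjustment. Over all 12319 genes tested, 0.284% were called, 0.235% higher and 0.0487% lower. Of the members, 26 were above 0 on the log2 scale, with a median of 0.36, while over all genes 47.8% were above 0 and the median was -0.02. At an unadjusted p under 0.05 there were 13 members higher and 1 lower, against 4.46% and 4.9% of all genes. A single member's change therefore passed the threshold, and the others are given as values.

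MSMO1 was at 34.1 CPM in 20-ARSF, 108 in 21-CTPS2, 89.0 in 22-LAPTM4B and 87.3 in 23-GOLGA8N. The unprefixed libraries ran from 21.5 CPM in GOLGA8N 1, through a median of 35.2, to 69.3 in E7. Again 3 prefixed libraries were above all unprefixed ones and 20-ARSF lay close to their median. The log2 fold change was 1.16 ± 0.234 (SE; 79.5 ± 31.7 CPM in prefixed and 35.6 ± 12.8 CPM in unprefixed libraries; edgeR adjusted p = 0.0191). The call was lost without 21-CTPS2 (log2 1.00, edgeR adjusted p = 0.145), without 22-LAPTM4B (log2 1.08, adjusted p = 0.162), without 23-GOLGA8N (log2 1.10, adjusted p = 0.124), and without Neg, GFP and RFP together (log2 1.16, adjusted p = 0.0548). Over the alternatives run its log2 fold lay between 1.00 and 1.64.

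HMGCS1, the cytosolic HMG-CoA synthase at the head of the mevalonate route, was at 197 CPM in 20-ARSF, 399 in 21-CTPS2, 408 in 22-LAPTM4B and 392 in 23-GOLGA8N. Unprefixed libraries held 128 CPM in ADORA2A as the lowest value, a median of 187 and 305 in Neg as the highest. The log2 fold change was 0.82 ± 0.195 (SE; edgeR adjusted p = 0.0876), short of the threshold with 17 libraries. It passed without 20-ARSF, at log2 1.02 (edgeR adjusted p = 0.00671), and without E7, Neg or TTR. ACAT2, which joins acetyl-CoA units into acetoacetyl-CoA, was at 190 CPM in 20-ARSF, 309.6 in 21-CTPS2, 305 in 22-LAPTM4B and 430 in 23-GOLGA8N, against 74.0 to 276 CPM in unprefixed libraries, with a median of 205. Its log2 fold change of 0.55 ± 0.234 (SE) did not pass (edgeR adjusted p = 0.452). ACAT2 overlaps TCP1 on the opposite strand by 558 bases, and the strand setting of the counting is not given, so its reads are uncertain.

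The next steps make the isoprenoid units. MVD, the mevalonate diphosphate decarboxylase, ran from 109 to 147 CPM in prefixed libraries, against 56.3 to 139 CPM, and was at log2 0.49 ± 0.175 (SE; edgeR adjusted p = 0.312). FDPS, the farnesyl diphosphate synthase, was at 216 CPM in 20-ARSF, 301 in 21-CTPS2, 372 in 22-LAPTM4B and 413 in 23-GOLGA8N, against a lowest of 183, a median of 242 and a highest of 365 CPM in unprefixed libraries (log2 0.41 ± 0.150 SE, edgeR adjusted p = 0.333). MVK, the mevalonate kinase, was at 61.1 ± 13.3 CPM (SD, n = 4) in prefixed and 38.6 ± 13.8 CPM (SD, n = 13) in unprefixed libraries. PMVK, the kinase after it, had a fold change below 0, at log2 -0.44 ± 0.387 (SE), and IDI1, the isomerase, was at 0.26 ± 0.164. In each of these genes the groups overlap.

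At the branch to squalene, FDFT1, the squalene synthase, was at 195 CPM in 20-ARSF, 342 in 21-CTPS2, 319 in 22-LAPTM4B and 386 in 23-GOLGA8N. Unprefixed libraries ran from 148 CPM in UBE2V1, through a median of 215, to 321 in E7. The log2 fold change was 0.56 ± 0.155 (SE; edgeR adjusted p = 0.132), and it passed without 20-ARSF (log2 0.74, edgeR adjusted p = 0.0282) and without E7 (log2 0.63, edgeR adjusted p = 0.0175). SQLE, the squalene epoxidase and a rate-setting step, was at 48.2 CPM in 20-ARSF, 86.1 in 21-CTPS2, 81.9 in 22-LAPTM4B and 93.3 in 23-GOLGA8N, against 37.9 to 90.6 CPM with a median of 55.9 in unprefixed libraries. Its log2 fold change was 0.46 ± 0.189 (SE; edgeR adjusted p = 0.421). LSS, the lanosterol synthase, lay between 0.535 and 10.3 CPM in prefixed and between 3.28 and 21.8 CPM in unprefixed libraries, close to the floor in places.

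After lanosterol, the enzymes did not all lean the same way. DHCR7, a late reductase, was at log2 0.49 ± 0.177 (SE), with its highest value, 230 CPM, in 21-CTPS2. CYP51A1, EBP and NSDHL, which demethylate and rearrange the sterol ring, were at log2 0.30, 0.26 and 0.36. TM7SF2, a sterol C14 reductase, was at 11.002 CPM in 20-ARSF, 9.80 in 21-CTPS2, 19.7 in 22-LAPTM4B and 14.3 in 23-GOLGA8N, against a lowest of 14.8, a median of 24.2 and a highest of 45.5 CPM in unprefixed libraries. It was the 1 member with an unadjusted p under 0.05 on the lower side (log2 -0.93 ± 0.301 SE, edgeR adjusted p = 0.246). Here 20-ARSF lay below all unprefixed libraries with 21-CTPS2 and 23-GOLGA8N, and 22-LAPTM4B lay among them. SC5D was at 0.07 ± 0.392, and HSD17B7 was at 0.60 ± 1.19 on its few reads.

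Among the regulators, SREBF2 was at 112 CPM in 20-ARSF, 113 in 21-CTPS2, 102 in 22-LAPTM4B and 109 in 23-GOLGA8N, so that all 4 prefixed libraries lay within a narrow range. The unprefixed ones ran from 56.5 CPM in TRPC5OS, through a median of 74.6, to 124 in E7, and the log2 fold change was 0.45 ± 0.171 (SE; edgeR adjusted p = 0.370). INSIG1, itself a target of the pathway, was at 107 CPM in 20-ARSF, 315 in 21-CTPS2, 177 in 22-LAPTM4B and 187 in 23-GOLGA8N, against 81.01 to 239.5 CPM with a median of 135 in unprefixed libraries (log2 0.55 ± 0.246 SE, edgeR adjusted p = 0.491). SREBF1 was on the other side of 0, at log2 -0.41 ± 0.260 (SE; edgeR adjusted p = 0.688), with 28.6 ± 5.82 CPM in prefixed (SD, n = 4) and 39.0 ± 14.7 CPM in unprefixed libraries (SD, n = 13). SCAP was at 0.02 ± 0.147, a value whose sign changed in 9 of 26 alternatives, and STARD4, a sterol carrier, at 0.11 ± 0.413.

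Of the fatty acid genes, SCD was at 368 CPM in 20-ARSF, 733 in 21-CTPS2, 573 in 22-LAPTM4B and 577 in 23-GOLGA8N. The unprefixed libraries ran from 272 CPM in UBE2V1, through a median of 402, to 586 in E7, which lay above 22-LAPTM4B and 23-GOLGA8N. The log2 fold change was 0.52 ± 0.148 (SE; edgeR adjusted p = 0.170), and it passed without 20-ARSF (log2 0.67, edgeR adjusted p = 0.0306) and without E7 (log2 0.58, edgeR adjusted p = 0.0213). LPIN1, a phosphatidate phosphatase of glycerolipid synthesis, was at 27.7 CPM in 20-ARSF, 42.8 in 21-CTPS2, 47.4 in 22-LAPTM4B and 61.0 in 23-GOLGA8N, against 15.2 to 60.004 CPM with a median of 26.7 in unprefixed libraries (log2 0.78 ± 0.243 SE, edgeR adjusted p = 0.217). FASN was at 361 CPM in 20-ARSF, 582 in 21-CTPS2, 433 in 22-LAPTM4B and 402 in 23-GOLGA8N, against 311 to 515 CPM with a median of 423. Its log2 fold change was 0.15 ± 0.122 (SE; edgeR adjusted p = 0.797).

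FADS1 was at 135 CPM in 20-ARSF, 292 in both 21-CTPS2 and 22-LAPTM4B and 314 in 23-GOLGA8N, against 117 to 317 CPM with a median of 208 in unprefixed libraries (log2 0.34 ± 0.247 SE, edgeR adjusted p = 0.762). FADS1 and FADS2 overlap on opposite strands, and FADS2 also overlaps FEN1 on the same strand by 4265 bases, so their counts are uncertain. The same holds for MVK and DHCR7. On the opposite strand MVK overlaps MMAB by 620 bases and DHCR7 overlaps AP002387.1 by 3484 bases. ACLY, which makes cytosolic acetyl-CoA from citrate, had a log2 fold of 0.23 ± 0.135, and ACACA, the first carboxylase of the route, was at -0.03 ± 0.413 on about 10.1 CPM in either group. ELOVL6, an elongase, was at -0.17 ± 0.217. No member had all 4 prefixed libraries above all 13 unprefixed ones, which held for 0.203% of the genes tested. In 4 members, ACAT2, HMGCS1, MSMO1 and ACLY, the 3 libraries other than 20-ARSF were above all 13, which held for 0.787% of genes. These 3 libraries were set apart after 20-ARSF was seen to be low in members such as HMGCS1 and ACLY. The share is therefore a description only.

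**Figure D3:**
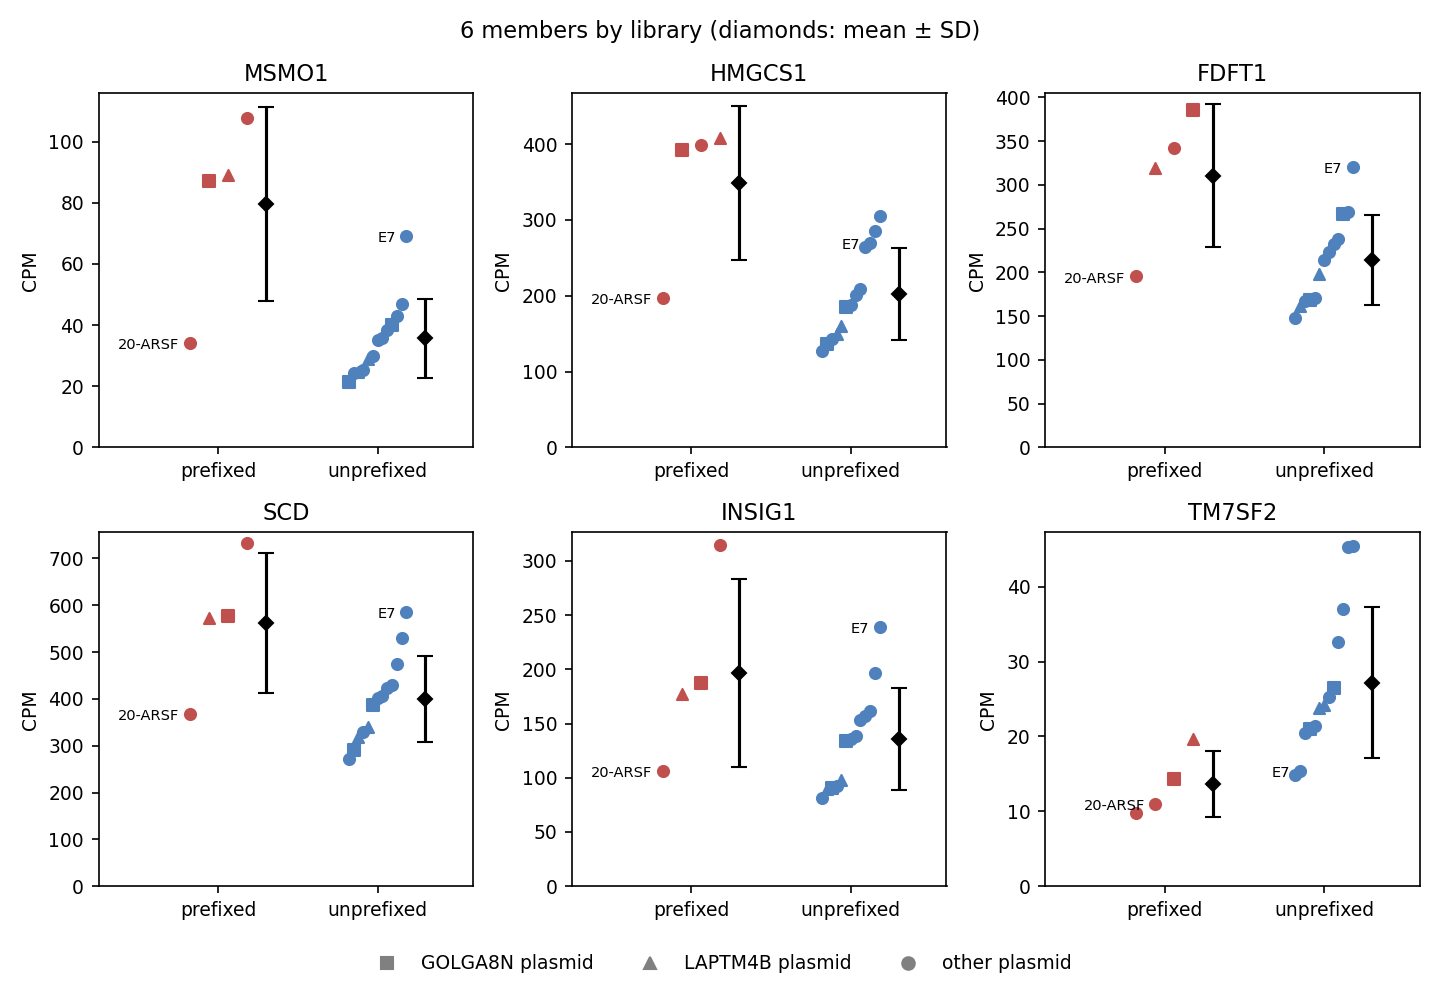
CPM of 6 members in each library, prefixed left and unprefixed right, with squares for GOLGA8N plasmids, triangles for LAPTM4B plasmids, circles for the others, and black diamonds with bars for the mean and SD. In MSMO1 and HMGCS1 3 prefixed libraries lie above all 13 unprefixed ones and 20-ARSF lies among them, in SCD and INSIG1 E7 reaches into the prefixed range, and in TM7SF2 the prefixed libraries lie between 9.80 and 19.7 CPM, against 14.8 to 45.5 CPM.

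Marker genes were read in the same comparison. Of the 12 erythroid markers 1 was called, 5 were above 0 and 7 below, with a median log2 of -0.09. The 1 called, HBE1, the embryonic globin, was higher at log2 0.83 ± 0.157 (SE; edgeR adjusted p = 0.0191), with 598 to 978 CPM in prefixed and 278 to 579 CPM in unprefixed libraries. The 7 fibroblast markers summed to 20.7 to 38.1 CPM in prefixed and 40.003 to 64.3 CPM in unprefixed libraries, without overlap. Of single genes tested, 0.154% had all prefixed libraries below all unprefixed ones. Most of the fibroblast sum was COL1A2, which did not pass the threshold (log2 -0.76 ± 0.202 SE, edgeR adjusted p = 0.105). COL1A2 itself overlapped, at 20.7 to 35.2 CPM in prefixed and 32.7 to 62.6 CPM in unprefixed libraries. LUM and PDGFRB had 0 reads in all 17 libraries. Their part in the lipid genes' values was not tested.

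The prefix could be compared at like plasmid genes in the 6 libraries named for GOLGA8N and LAPTM4B, with the plasmid gene as a term (23-GOLGA8N and 22-LAPTM4B against libraries 1 and 2 of each). Here 7 of the 30 members tested were called, all of them higher, against 0.617% of 11829 genes called and 0.465% called higher. They were HMGCS1 at log2 1.37 ± 0.162 (SE; edgeR adjusted p = 0.000373), MSMO1 at 1.64 ± 0.276 (adjusted p = 0.00929), ACAT2 at 1.02 ± 0.165 (adjusted p = 0.00740), FDPS at 0.98 ± 0.152 (adjusted p = 0.00611), FADS1 at 0.97 ± 0.174 (adjusted p = 0.0140), SCD at 0.81 ± 0.146 (adjusted p = 0.0140) and FDFT1 at 0.85 ± 0.177 (adjusted p = 0.0343). These rest on 2 prefixed libraries, both among the 3 prefixed libraries that were high above. HMGCS1, for example, was at 392 and 408 CPM in 23-GOLGA8N and 22-LAPTM4B, against 137, 185, 161 and 149 CPM in GOLGA8N 1, GOLGA8N 2, LAPTM4B 1 and LAPTM4B 2. In MSMO1 the values were 87.3 and 89.0 CPM, against 21.5, 40.1, 29.04 and 24.6 CPM in the same order.

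The erythroid markers differed between these 6 libraries too. They summed to 7056 and 7631 CPM in 23-GOLGA8N and 22-LAPTM4B, against 10914 and 10887 CPM in GOLGA8N 1 and 2 and 8582 and 9755 CPM in LAPTM4B 1 and 2, without overlap. Of the 12 markers edgeR called 0, while 10 were below 0 with a median log2 of -0.37. At an unadjusted p under 0.05 there were 5 lower (4.69% of genes), among them the globin genes HBG2, HBZ, HBA1 and HBA2, and 1 higher, HBE1 (4.45% of genes). The fibroblast markers summed to 20.7 and 30.7 CPM in the prefixed pair, against 46.1 to 56.1 CPM in the other 4. The part of either list in the values of the lipid genes was not tested.

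Several members came close to the threshold in these 6 libraries. INSIG1 was at log2 0.85 ± 0.193 (SE; edgeR adjusted p = 0.0555), EBP at 0.76 ± 0.193 (adjusted p = 0.102), CYP51A1 at 0.79 ± 0.202 (adjusted p = 0.104) and SQLE at 0.86 ± 0.237 (adjusted p = 0.144). FASN was at 0.25 ± 0.160 and SCAP at -0.05 ± 0.200, and TM7SF2 stayed below 0 at -0.47 ± 0.395. In all, 24 of 30 were above 0, with a median of 0.74, against a median of -0.02 over all genes. By branch, 5 of 17 sterol enzymes tested, 0 of 5 regulators and 2 of 8 fatty acid genes were called. Whether the prefix difference itself differed between the GOLGA8N and LAPTM4B plasmids cannot be decided here, since each has only 1 prefixed library. An interaction term, GOLGA8N over LAPTM4B, was at log2 -0.18 ± 0.361 (SE) for HMGCS1, -0.29 ± 0.581 for MSMO1 and 0.53 ± 0.355 for ACAT2. It was at 0.03 ± 0.351 for FDPS, -0.29 ± 0.373 for FADS1, -0.09 ± 0.322 for SCD and -0.06 ± 0.367 for FDFT1.

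**Figure D4:**
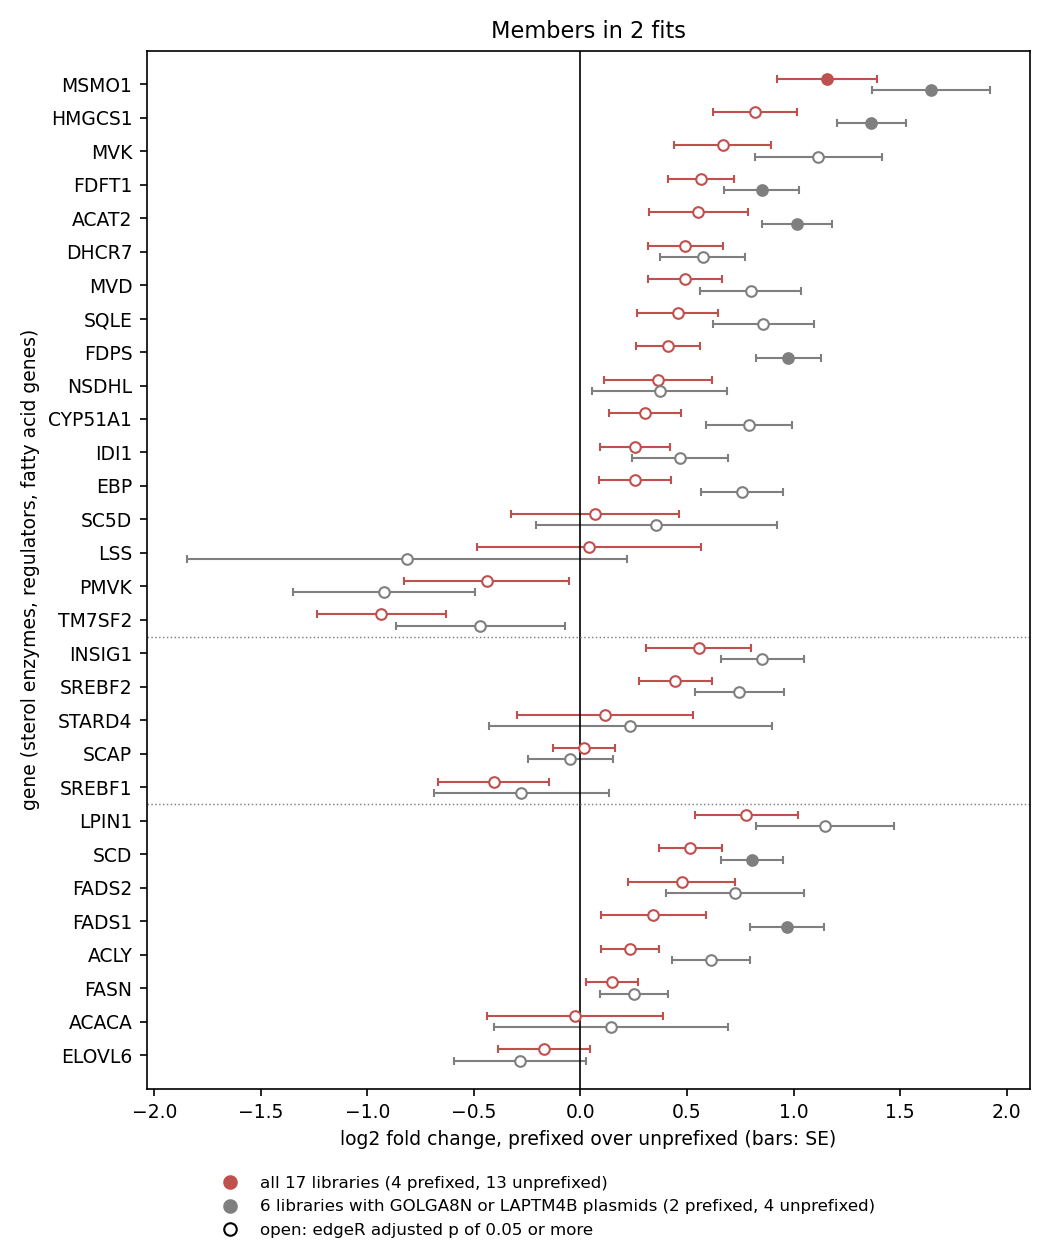
Log2 fold changes of the members, prefixed over unprefixed, with SE bars, in the fit of 17 libraries (red) and in the fit of the 6 libraries with GOLGA8N or LAPTM4B plasmids (grey). Filled points have an edgeR adjusted p under 0.05, which is 1 gene in red (MSMO1) and 7 in grey, and HSD17B7, tested only with 17 libraries, is left out.

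Leaving out the library that stood apart in each group changed the count of calls. Without 20-ARSF edgeR called 4 members, MSMO1, HMGCS1, FDFT1 and SCD, against 0.226% of all genes. Without E7 it called the same 4, against 0.847% of all genes. Both libraries were singled out because they stood apart in these same members, so these counts are a description only. Without 22-LAPTM4B, 21-CTPS2 or 23-GOLGA8N, each left out alone, it called 0 members. Over all genes it then called 2 of 12802, 11 of 13139 and 7 of 13071, in that order. With all 17 libraries it called 35 of 12319. DESeq2 called 2 members, HMGCS1 and MSMO1 (0.463% of 26798 genes). By limma-voom 0 members were called (55 of 12319 genes), with MSMO1 at log2 1.00 (limma-voom adjusted p = 0.0649). With no filter on low counts edgeR called 6, the 4 above with ACAT2 and INSIG1, against 2.08% of 26798 genes.

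Genes of neighbouring pathways were counted in the same prefix comparison. Of 16 further genes of sterol uptake and synthesis tested, edgeR called 0, and 9 were above 0, with a median log2 of 0.02. At an unadjusted p under 0.05 there were 4, all higher (4.46% of all genes were higher at that level). ACSS2, which makes acetyl-CoA from acetate, was at 71.1 ± 27.5 CPM (SD, n = 4) in prefixed and 40.4 ± 22.2 CPM (SD, n = 13) in unprefixed libraries (log2 0.81, edgeR adjusted p = 0.505). Of 24 further fatty acid and glycerolipid genes tested, 0 were called. There were 2 higher and 1 lower at an unadjusted p under 0.05, against 4.46% and 4.9% of all genes. The higher ones were ELOVL5, an elongase, at log2 0.35, and HADHA, of mitochondrial fatty acid oxidation, at 0.30. The lower one was CPT1A, which admits fatty acids to mitochondria, at -0.67. Of 5 sterol efflux genes tested, 0 were called, and 2 were above 0, with a median log2 of -0.33. At an unadjusted p under 0.05 there was 1, lower (4.9% of genes). In the 6 libraries of like plasmids edgeR called 1 of the 16 further sterol genes, higher (0.465% of genes), with a median log2 of 0.36. In that fit it called 0 of the 24 fatty acid and glycerolipid genes and 0 of the 5 efflux genes.

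The second question was whether the members differed between the plasmid arms. In the GOLGA8N arm the sterol sum was 1806 ± 708 CPM (SD, n = 3), in the LAPTM4B arm 1691 ± 628 CPM and in the reference arm 1788 ± 78.1 CPM. In each arm the prefixed library stood apart, at 2604 CPM in 23-GOLGA8N against 1253 and 1561 CPM in GOLGA8N 1 and 2, and at 2415 CPM in 22-LAPTM4B against 1358 and 1299 CPM in LAPTM4B 1 and 2. Fatty acid genes summed to 1272 ± 344 CPM in the GOLGA8N arm, 1200.5 ± 321.5 CPM in the LAPTM4B arm and 1491 ± 126 CPM in the reference arm (SD, n = 3 each). Regulators summed to 369 ± 68.4, 388 ± 64.5 and 471 ± 17.96 CPM in that order of arms. For the regulators both arms lay below the lowest reference library, Neg at 456 CPM, with 22-LAPTM4B closest at 454 CPM, but this did not hold with TMM sizes. There 22-LAPTM4B was at 477 and 23-GOLGA8N at 449 CPM, against 422, 441 and 437 CPM in Neg, RFP and GFP.

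**Figure D5:**
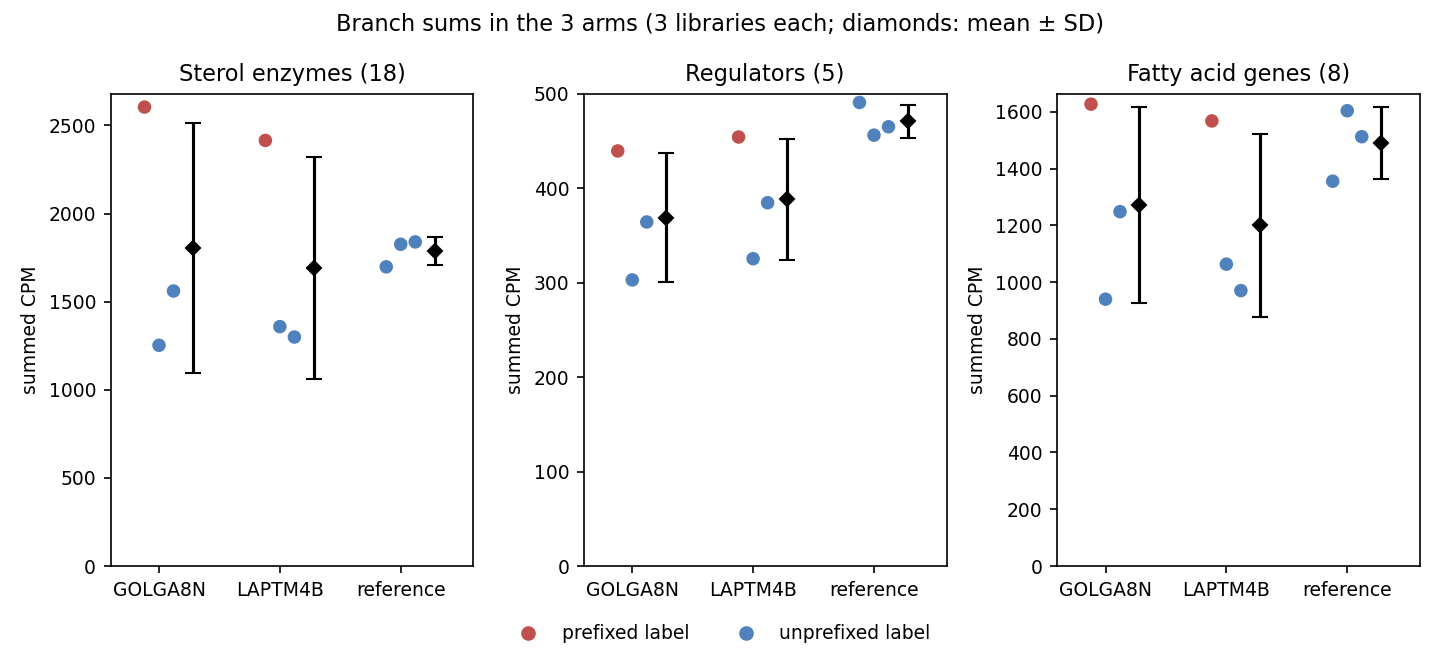
Summed CPM of each branch in the GOLGA8N, LAPTM4B and reference arms, with red points for prefixed and blue for unprefixed labels and black diamonds with bars for the mean and SD of 3 libraries. The single prefixed library is the highest point of its arm in all 3 panels, and in the sterol panel it lies above the reference libraries (1698 to 1839 CPM) while the unprefixed ones lie below them. With TMM sizes in place of plain CPM, GOLGA8N 2, at 1585, lies above GFP, at 1513.

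Gene by gene, edgeR called 0 of the 30 members tested in GOLGA8N against reference (0.0168% of 11916 genes were called), with 0 members at an unadjusted p under 0.05 (3.23% of genes were higher and 2.45% lower at that level). The lowest p belonged to SCAP, at 108, 102 and 108 CPM in GOLGA8N 1, GOLGA8N 2 and 23-GOLGA8N, against 167, 134 and 158 CPM in Neg, RFP and GFP. Its log2 fold change was -0.37 ± 0.208 (SE; edgeR adjusted p = 0.915). SCAP and ELOVL6 were the 2 members with all 3 GOLGA8N libraries below the reference ones, which held for 8.03% of genes, and 0 members had them all above (3.79% of genes). TM7SF2 was at log2 -0.68 ± 0.414, with 20.6 ± 6.11 CPM in the GOLGA8N arm and 37.4 ± 13.9 CPM in the reference arm (SD, n = 3 each). ACAT2 was at 0.71 ± 0.510 and FDFT1 at 0.34 ± 0.278, and the scarce LSS and STARD4 were at -1.23 ± 0.870 and -1.02 ± 0.668. Of the 30, 12 were above 0 and the median was -0.07, against 0.01 over all genes.

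In LAPTM4B against reference edgeR also called 0 of 30 members (0.0% of 11916 genes were called), with 1, SREBF1, lower at an unadjusted p under 0.05 (1.44% of genes lower and 2.51% higher). SREBF1 was at 15.8, 29.2 and 28.1 CPM in LAPTM4B 1, LAPTM4B 2 and 22-LAPTM4B, against 42.2, 53.0 and 54.5 CPM in Neg, RFP and GFP, and the arms did not overlap. Its log2 fold change was -0.89 ± 0.383 (SE; edgeR adjusted p = 1.00), where 6.45% of all genes had all 3 LAPTM4B libraries below the reference ones and 3.68% had them above. SREBF1 was the 1 member on the lower side and 0 were on the higher. FADS1 was at -0.44 ± 0.315, INSIG1 at -0.33 ± 0.276 and DHCR7 at -0.25 ± 0.242. The reference libraries are those of the comparison with GOLGA8N, so the values of these comparisons are not independent. The 30 members had a median of -0.02, and 15 were above 0, against 0.02 over all genes.

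Set directly against LAPTM4B, the GOLGA8N arm had 0 of 30 members called (0.00839% of 11916 genes were called) and 2 at an unadjusted p under 0.05, SREBF1 higher (0.932% of genes) and SCAP lower (1.11% of genes). SREBF1 was at 35.1, 69.1 and 25.3 CPM in GOLGA8N 1, GOLGA8N 2 and 23-GOLGA8N, against 15.8, 29.2 and 28.1 CPM in LAPTM4B 1, LAPTM4B 2 and 22-LAPTM4B (log2 0.84 ± 0.378 SE, edgeR adjusted p = 1.00). The arms overlap, and GOLGA8N 2 alone is far above the rest. SCAP was at log2 -0.44 ± 0.205 (SE; edgeR adjusted p = 1.00), with 106 ± 3.40 CPM in the GOLGA8N arm and 145 ± 34.0 CPM in the LAPTM4B arm (SD, n = 3 each). PMVK, MVK and FADS2 were at 0.88, -0.47 and 0.59, and STARD4 at -1.25 ± 0.660. SCAP and STARD4 had all 3 GOLGA8N libraries below the LAPTM4B ones (4.42% of genes), and 0 members had them above (3.93% of genes).

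With unprefixed labels only, most members were below 0 in both plasmid arms, and none passed the threshold. Against Neg, RFP and GFP, the libraries GOLGA8N 1 and 2 had 24 of 30 members below 0, with a median log2 of -0.29, and edgeR called 0 (0.0548% of 12764 genes were called), with FADS1 (-0.56 ± 0.216 SE) and HMGCS1 (-0.55 ± 0.218) at an unadjusted p under 0.05 on the lower side (3.05% of genes). The libraries LAPTM4B 1 and 2 had 25 of 30 below 0, with a median of -0.31, and again 0 called (0.0157% of 12764 genes were called). Their lowest p was that of FADS1, at 146 and 136 CPM, against 307, 317 and 236 CPM in Neg, RFP and GFP (log2 -0.91 ± 0.218 SE, edgeR adjusted p = 0.422). INSIG1 (-0.73), CYP51A1 (-0.72), HMGCS1 (-0.63), SREBF1 (-1.02) and SCD (-0.39) also had an unadjusted p under 0.05 (6 members with FADS1, against 1.64% of genes lower). Over all genes the median was -0.02 for GOLGA8N and 0.00 for LAPTM4B. Low sums were not limited to these arms. On plain CPM the sterol sum was 1468 ± 207 (SD) in the 9 unprefixed libraries naming a human gene. In the reference arm it was 1788 ± 78.1. Outside the arms ADORA2A was at 1283 CPM and UBE2V1 at 1312, while TRPC5OS, COL6A6 and TTR were at 1664, 1697 and 1782. With TMM sizes Neg, RFP and GFP were at 1689, 1743 and 1513. TTR, COL6A6, TRPC5OS and GOLGA8N 2, at 1776, 1737, 1713 and 1585, then lay among or above them. ADORA2A, UBE2V1, LAPTM4B 1, LAPTM4B 2 and GOLGA8N 1 lay below them, at 1342, 1463, 1396, 1289 and 1296.

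Other lists differed in these fits as well. The erythroid markers summed to 10914 and 10887 CPM in GOLGA8N 1 and 2 and to 8582 and 9755 CPM in LAPTM4B 1 and 2, against 8419, 7793 and 8009 CPM in Neg, RFP and GFP. For GOLGA8N all 12 were above 0, with a median log2 of 0.58, 7 were higher at an unadjusted p under 0.05 (2.84% of genes), and 1 was called, the embryonic globin HBZ at log2 0.81 ± 0.134 (SE; edgeR adjusted p = 0.00933). For LAPTM4B 11 of 12 were above 0, with a median of 0.30, 4 were higher at that level (2.08% of genes) and 0 were called. Of the 16 further sterol genes, 12 were below 0 for GOLGA8N and 13 for LAPTM4B, with medians of -0.14 and -0.24. Of the 24 further fatty acid and glycerolipid genes, 14 and 18 were below 0, with medians of -0.10 and -0.36, and edgeR called 0 of either list in either arm. The part of the erythroid markers in the values of the lipid genes was not tested.

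The libraries were also compared one by one, with no replicate check, among 25 members averaging 20 CPM or more. In 23-GOLGA8N 9 of 25 members were at least 1.5-fold above the median of the other 16 libraries, against 7.33% of 5009 genes, among them ACAT2, HMGCS1, FDPS, FDFT1, SQLE, MSMO1 and EBP of the sterol enzymes. In 21-CTPS2 8 were above (9.88% of genes), with INSIG1, SCD and DHCR7 among them. In 22-LAPTM4B 4 were above (5.77% of genes), HMGCS1, MVK, MSMO1 and LPIN1, and 0 below (9.26% of genes). In each of 21-CTPS2 and 23-GOLGA8N TM7SF2 was the 1 member below (8.48% and 11.7% of genes). E7, though unprefixed, had 7 of 25 above (4.99% of genes): SQLE, MSMO1, NSDHL, DHCR7, SREBF2, INSIG1 and FADS2. Its 1 member below was ELOVL6 (6.45% of genes). By contrast 20-ARSF had 0 above (4.07% of genes) and 2 below (4.79% of genes), TM7SF2 and FADS1.

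At the other end, UBE2V1 had 9 of 25 members at least 1.5-fold below the median (13.8% of genes), with MVK, FDFT1, SQLE, MSMO1, INSIG1, SCD and FADS1 among them. LAPTM4B 2 had 8 below (7.35% of genes), ADORA2A 6 (7.75% of genes) and GOLGA8N 1 4 (9.46% of genes), and INSIG1 and FADS1 were on all 3 of these lists. Neg, RFP and GFP had 1, 0 and 3 members below, against 3.95%, 4.81% and 20.2% of genes. COL6A6 had 0 in either direction (5.65% of genes above and 9.38% below). TTR had 2 above (4.19% of genes), TM7SF2 and FADS2, and 0 below (5.53% of genes). TRPC5OS had SREBF1 above (5.91% of genes) and MVK and TM7SF2 below (11.1% of genes). RFP had 4 above (6.23% of genes), TM7SF2, NSDHL, SREBF1 and FADS1. GFP, the shallowest library, also had 4 above (19.4% of genes), TM7SF2, SREBF1, FADS2 and LPIN1, and Neg had HMGCS1 above (7.65% of genes). LAPTM4B 1 had 0 above (3.39% of genes) and SREBF1 and FADS1 below (7.45% of genes), and GOLGA8N 2 had SREBF1 above (5.87% of genes) and MVK below (8.64% of genes). UBE2V1 had TM7SF2 above (3.31% of genes), and LAPTM4B 2, ADORA2A and GOLGA8N 1 had 0 above (6.97%, 3.33% and 4.43% of genes). The erythroid markers summed to 12034 CPM in UBE2V1, their highest value, and to 6140 CPM in E7, their lowest, and their part in these counts was not tested.

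How far members followed each other was described with the 16 libraries other than GFP, after seeing the values. The 4 libraries 21-CTPS2, 22-LAPTM4B, 23-GOLGA8N and E7 were the 4 highest in 11 of 25 members and held at least 3 of the 4 highest places in 17, while the same was so for 1.56% and 8.86% of 5009 genes. These 4 libraries were picked because the same members were high in them, so the shares are a description only. By branch, 7 of 14 sterol enzymes, 1 of 4 regulators (INSIG1) and 3 of 7 fatty acid genes (SCD, ACLY and LPIN1) had all 4. TM7SF2, SREBF1 and ELOVL6 had none of the 4 libraries among their 4 highest. Of these 4 libraries 3 carry a prefix, and no gene is named by more than 1 of them.

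The members also differed in how much they varied. The coefficient of variation over these 16 libraries had a median of 29.3% in the 25 members and 23.6% in all 5009 genes. MSMO1 varied most, at 55.8%, with its highest library 5.01 times its lowest, followed by INSIG1 at 42.1%, TM7SF2 at 41.9%, LPIN1 and HMGCS1 at 40.7%. ACLY varied least at 16.2%, followed by FASN at 17.6% and SCAP at 18.8%. Among the sterol enzymes IDI1 was the steadiest at 20.3%.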

How the data were processed

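RNA of K562 cells was measured in 17 libraries by 3′ tag sequencing, with primers that carry 12 bp molecular identifiers per the labels. For 228297 transcripts the authors deposited Salmon's estimated counts (expected counts, often with decimals) and TPM, per the file headers. As tools, the submitters' processing notes list Salmon 0.7.2, STAR 0.7.2, UMI-tools and featureCounts, and as builds hg38 and GRCh38. No source used here states the strand setting or whether molecular identifiers were collapsed.

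The authors' estimated counts were added up over each gene's transcripts in GENCODE 29, rounded for tests, and scaled to CPM of reads in genes. Transcripts with no gene there, 3.32% to 3.6% of reads, stayed out. The authors' deposited TPM values were used for levels between genes and as an alternative. The main test was the robust quasi-likelihood test of edgeR 4.0.16 (R 4.3.3), after TMM scaling and filterByExpr, adjusted by Benjamini-Hochberg over all genes tested, with a threshold of 0.05. A standard error is the log2 fold change over the square root of F, without its sign. The 17 libraries entered 1 fit for the prefix, and the 9 libraries of the 3 arms another. Because nothing says that libraries are separate cultures, a p-value covers only the spread among them, and that may be technical. Alternatives were DESeq2 1.42.0, limma-voom 3.58.1, other scaling and filters, other sets of libraries, and leaving out each library.

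Named genes were the called members, the 6 with the lowest p in each comparison, the 3 of each branch with the highest TPM, and SREBF1, SREBF2, INSIG1, HMGCS1, SQLE, FASN and SCD. Other members and neighbouring pathways are given as counts with examples. The members and lists were chosen with earlier results of these data known. Some genes of the neighbouring lists are not reported here. Promoter windows are from RefSeq, GRCh38.p14, the first listed for each gene.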

Additional observations from a re-analysis of the deposited data

Results flagged for a closer look

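In the group of 4 prefixed libraries, 6 of 34 values checked (31 members and 3 sums) held 1 library whose gap to the nearest of the others exceeded the share of the range that Dixon's test allows at 95%. Chance flags about 1 in 20 such groups, and the members share libraries. In 4 of the 6 the library was 20-ARSF, on the low side. Its sterol sum was 1479 CPM, against 2415 to 2604 CPM in the other 3. Its HMGCS1 was at 197 CPM, against 392 to 408 CPM. FADS1 in 20-ARSF was at 135 CPM, against 292 to 314 CPM, and ACLY was at 110.3 CPM, against 145 to 149.96 CPM. Of the remaining pair, LSS in 23-GOLGA8N was at 0.535 CPM, against 9.29 to 10.3 CPM, and HSD17B7 in 21-CTPS2 was at 5.59 CPM, against 0.868 to 1.64 CPM. Both of these genes had few reads, and the LSS value lies under the floor of 3 reads in its library, 1.38 CPM. With 20-ARSF left out, edgeR called 4 members in the prefix comparison (0.226% of genes), against 1 with all 17 libraries (0.284% of genes). As 20-ARSF was picked for its low values in the members, that count is a description only. What sets 20-ARSF apart was not tested.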

How the results depend on the processing

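The count of members called for the prefix depended on the processing. It was 1 with all 17 libraries (35 of 12319 genes called) and 2 with DESeq2 (124 of 26798 genes). With limma-voom it was 0 (55 of 12319 genes). It was 6 without a filter on low counts (2.08% of 26798 genes called) and 7 in the 6 libraries of like plasmids (73 of 11829 genes). Without Neg, GFP and RFP it was 0 (20 of 11484 genes). Without GFP and 20-ARSF, a setting chosen after seeing the data, it was 6 (49 of 12893 genes). Leaving out 1 library at a time it ran from 0 to 4. In those fits the genes called ran from 2 of 12802 without 22-LAPTM4B to 102 of 12040 without E7. RLE scaling (28 of 12319 genes called), a 10 CPM filter (39 of 8427) and unmatched transcripts kept (23 of 13295) left the count of members at 1. Members called in the 3 comparisons of arms stayed at 0 in each alternative run, and in the edgeR fits leaving out 1 library the range was 0 to 0. The most genes called there were 42 of 24448, in GOLGA8N against reference without a filter. The replicate numbers 1 and 2 of GOLGA8N and LAPTM4B are shared by label alone (r = 0.144 between same-numbered deviations over 10879 genes, 2 pairs), and with a replicate block 0 members were called, as without it.

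The SCAP fold for the prefix reversed to -0.048 in the 6 libraries, to -0.00075 without GFP and 20-ARSF, and ranged from -0.071 to 0.11 leaving out 1 library. ACAT2 in LAPTM4B against reference reversed to -0.021 against all 14 other libraries. The log2 ratio of sterol sums, 0.01 for GOLGA8N over reference, was -0.13 with TPM, 0.16 with TMM sizes, -0.16 as mean log2, and -0.35 to 0.22 leaving out 1 library. For LAPTM4B over reference, -0.08, it was -0.19 with TPM, 0.078 with TMM sizes and -0.43 to 0.078 leaving out 1. Regulator ratios, -0.35 for GOLGA8N and -0.28 for LAPTM4B, were -0.46 with TPM (GOLGA8N), -0.20 and -0.12 with TMM sizes, -0.50 as mean log2 (GOLGA8N), and -0.50 to -0.23 and -0.41 to -0.17 leaving out 1. Fatty acid ratios, -0.23 and -0.31, were -0.079 and -0.16 with TMM sizes, -0.089 as mean log2 (GOLGA8N), and -0.45 to -0.052 and -0.55 to -0.18 leaving out 1. The prefix ratios of the 3 sums kept their sign in each alternative. At 2-fold, 4 members were above the median in 21-CTPS2, 2 in 22-LAPTM4B, 3 in 23-GOLGA8N, 0 in E7 and 0 in UBE2V1, and 1 was below in 20-ARSF, 1 in UBE2V1, and 0 in 23-GOLGA8N, E7 and GOLGA8N 1. The causes were not tested. Depth limits LSS, HSD17B7, ACACA and the GFP library.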
